A study of Mus musculus with 9 samples.

Results

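Actin is the protein of the thin filaments that give T cells their shape, let them crawl, and build the contact zone with an antigen-presenting cell. Its filaments grow from monomers that profilin and the thymosins hold ready. They branch through the Arp2/3 complex, are capped by proteins such as CapG, and are taken apart by cofilin with the help of coronin. A part of the actin genes is switched on by serum response factor (SRF), which binds a DNA element called the CArG box. Its partner MRTF-A is released to work when free actin monomers run low.

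The 10 genes described here are Actg1 and Actb, the actins of non-muscle cells, and the actin-binding genes Capg, Cfl1, Pfn1, Tmsb4x, Tmsb10, Coro1a, Arpc2 and Arpc3. They were named one by one, and all 10 were among the 13698 genes of the table. They were chosen by their log2 levels in all 3 groups, which were known beforehand, so their own differences between groups are a description. Which of them pass the fit over all genes is listed beside the share of all genes that do, and nothing is supported with it. RNA was sequenced from sorted regulatory T (Treg) cells of mouse spleen and lymph node, pooled per library, in 9 libraries of 3 groups with 3 libraries each. Values are read counts scaled to library size (CPM) made alike in distribution across libraries, deposited as log2; a value therefore reflects mainly a gene's rank within its library, and depth cannot be read from it.

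The deficient cells had the genotype LRFffThpokff Foxp3 Cre-YFP/X and were sorted as YFP+MHCII-. LRF and Thpok are transcription factors encoded by Zbtb7a and Zbtb7b, and both genes are deleted in cells whose active Foxp3 allele makes Cre and YFP. The genetic controls were YFP+MHCII- cells from other mice, WT Foxp3 Cre-YFP/X, which share the Foxp3 allele with the deficient cells and keep both factors. The animal controls were YFP-MHCII-CD25hi cells from the same 3 mice as the deficient cells; they keep both factors and differ from the deficient cells also in Foxp3 allele and in the sorting gate. All mice were females on a C56Bl6/129 mix. In each mouse carrying Cre, which Treg cells use that Foxp3 allele depends on which X chromosome is active, so the cells compared are a part of the Treg cells of a mouse. Zbtb7b lay between 0.147 and 0.366 CPM in deficient libraries, against 92.1 to 149 CPM in genetic controls and 76.9 to 106 CPM in animal controls. Zbtb7a lay between 78.8 and 103 CPM in deficient libraries, against 69.5 to 111 and 90.6 to 128 CPM in the genetic and animal controls, and these gene-level values do not test its deletion. Cd3e, part of the T cell receptor complex and 1 of 8 T and Treg cell markers read, was at 824 CPM or more in all 9 libraries. In deficient cells Cd3e was called higher and Cd4 lower than in genetic controls (log2 differences 0.47 and -1.27, adjusted p = 0.0398 and 0.00488 by limma). Against animal controls Cd4, Il2ra and Foxp3 were called lower (-1.32, -0.71 and -4.81, adjusted p = 0.00338, 0.0497 and 5.18e-05 by limma). These are 25% and 37.5% of the 8, beside 0.869% and 0.891% of all genes. Foxp3 lay between 26.5 and 35.9 CPM in deficient libraries and between 24.8 and 38.1 CPM in genetic controls, but between 754 and 999.7 CPM in animal controls.

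The coding sequences of Actg1 and Actb resemble each other closely, which bears on how reads can be told apart. Both have 1128 coding bases in GENCODE M21 (GRCm38), of which 128 differ (88.7% identical), and 120 of those differences fall on the last base of a codon. The longest identical run is 62 bases. The first 60 coding bases of each are shown, with the 9 bases that differ between them in capitals, from chr11:120348032-120348091 and chr5:142905627-142905686, both on the minus strand.
Actg1: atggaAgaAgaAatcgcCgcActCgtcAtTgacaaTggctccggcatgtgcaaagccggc
Actb: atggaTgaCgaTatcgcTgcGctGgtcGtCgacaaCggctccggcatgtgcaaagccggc
The differences lie in the first part of the stretch, and the 3′ part is identical.

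Of all 50-base windows of the annotated coding transcripts of Actg1, 45.6% also occur in a transcript of another gene, against 12.2% for Actb. Actb and Actg1 have 30 such windows in common, so nearly all of the sharing is with other genes. The pseudogene Gm12715 holds 41.1% of the Actg1 windows and is listed in the table at 7.22 ± 0.784 CPM in deficient cells, 9.17 ± 0.979 CPM in genetic controls and 8.38 ± 0.818 CPM in animal controls (SD, n = 3 each). Gm8399, with 28.6% of the windows, averaged 1.78 ± 0.518, 2.02 ± 0.382 and 1.805 ± 0.656 CPM in these groups. Capg, Pfn1, Tmsb4x, Coro1a and Arpc3 shared no window with another gene. Tmsb10 shared 27.0%, Cfl1 8.22% and Arpc2 0.145%. No source used here says how reads that match several places were counted, so the level of Actg1 is less certain than that of Capg.

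Capg encodes CapG, a gelsolin family protein that caps the barbed ends of actin filaments and, unlike gelsolin, does not cut them. It lies on chromosome 6 (72544391 to 72562983, plus strand). Its level was 121, 128 and 144 CPM in the deficient libraries (mice 142114, 232614 and 432614). It was 388, 407 and 520.0 CPM in genetic controls 124, 8619 and 8800, and 501, 616 and 625 CPM in the animal controls of mice 142114, 232614 and 432614. The 3 deficient libraries were the lowest of the 9, and the 2 kinds of control overlapped.

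The mean of Capg was 131 ± 11.9 CPM in deficient cells, against 438 ± 71.4 CPM in genetic controls and 581 ± 69.3 CPM in animal controls (SD, n = 3 each). The log2 difference of deficient cells was -1.73 ± 0.16 from genetic controls and -2.14 ± 0.16 from animal controls (SE), or 0.301 and 0.226 times their level. Here and below, the SE of a log2 difference is that of the limma fit. It draws on all 9 libraries and on genes of like level, so it is not the spread of the libraries compared. Genetic controls differed from animal controls by -0.41 ± 0.16. Within each of the 3 mice that gave both kinds of cell, the deficient cells were lower, by log2 differences of -2.05, -2.27 and -2.11. The spread between mice (SD 0.12) was small beside that difference. In bulk samples, fewer cells that make a transcript and less of it per cell cannot be told apart.

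CapG is also made in quantity by macrophages and dendritic cells, so the markers of those cells were read beside it. Of 15 such markers 7 were in the table, and they summed to between 398 and 474 CPM in deficient libraries, 513 and 868 CPM in genetic controls, and 633 and 700.3 CPM in animal controls. In most libraries the larger part was Ctss, a lysosomal protease (254 to 306 CPM in deficient cells, 389 to 444 in genetic and 498 to 576 in animal controls), and Cst3, its inhibitor. Ctss fell against the animal controls (log2 difference -0.93 ± 0.12, adjusted p = 0.00617 by limma). Lyz2, the lysozyme of myeloid cells, lay between 9.62 and 36.3 CPM in deficient libraries, 7.21 and 257 CPM in genetic controls and 0.978 and 3.11 CPM in animal controls. Csf1r, the receptor that defines macrophages, reached 22.2, 34.9 and 0.213 CPM in the 3 groups. Cd68, another of these markers, reached 14.6, 0.0839 and 4.98 CPM, and lay below 0.01 CPM in a library of each group. Fcgr3 and Emr1 averaged below 10 CPM, with SEs of 3.42 and 3.58 on their log2 differences. Ctss was thus lowest in deficient libraries, as Capg was, and so was the sum, of which Ctss is a large part. Lyz2, and Csf1r by its highest value, were lowest in animal controls, where Capg was highest. Cd68 reached its highest value in deficient cells, where Capg was lowest. The part of these cells in the Capg values was not tested.

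Actg1 encodes gamma-actin, one of the cytoplasmic actins, and lies on chromosome 11 (120345690 to 120348542, minus strand). The deficient libraries held 1252, 1252 and 1294 CPM. The genetic controls held 1733, 1770.0 and 1707 CPM and the animal controls 1685, 1610.2 and 1629 CPM. The deficient libraries were the lowest in the series, below all 6 control libraries, and the animal controls lay below the genetic controls without overlap. The group means were 1266 ± 24.2 CPM in deficient cells, 1737 ± 31.7 CPM in genetic controls and 1641 ± 38.8 CPM in animal controls (SD, n = 3 each).

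For Actg1 the log2 difference of deficient cells was -0.46 ± 0.06 from genetic controls and -0.37 ± 0.06 from animal controls (SE), or 0.729 and 0.771 times their level. Within the 3 mice it was -0.43, -0.36 and -0.33. Genetic controls differed from animal controls by 0.08 ± 0.06. The difference of Actg1 was thus small in size, and the spread between libraries of a group was smaller still. The pseudogene Gm12715 had log2 differences of -0.34 ± 0.56 and -0.22 ± 0.56 from the genetic and animal controls, of the same sign as those of Actg1. They did not pass the test (adjusted p = 0.891 and 0.949 by limma). At this low level (group means 7.22 to 9.17 CPM) the SE of the fit is larger than the difference of Actg1. The test could therefore not find a change of that size, and no conclusion is drawn from it.

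Actb encodes beta-actin, the other cytoplasmic actin and a common reference gene in quantitative PCR; it lies on chromosome 5 (142903115 to 142906754, minus strand). Its level was 3316, 2665 and 2950.2 CPM in the deficient libraries. It was 3419, 3271 and 3271 CPM in genetic controls and 2988, 2452 and 3048 CPM in animal controls. The deficient libraries overlapped both kinds of control, while all genetic controls lay above all animal controls. The log2 difference of deficient cells was -0.16 ± 0.10 from genetic controls and 0.07 ± 0.10 from animal controls, of opposite signs. Genetic controls differed from animal controls by 0.24 ± 0.10. In mouse 232614 both libraries were the lowest of their groups.

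**Figure D1:**
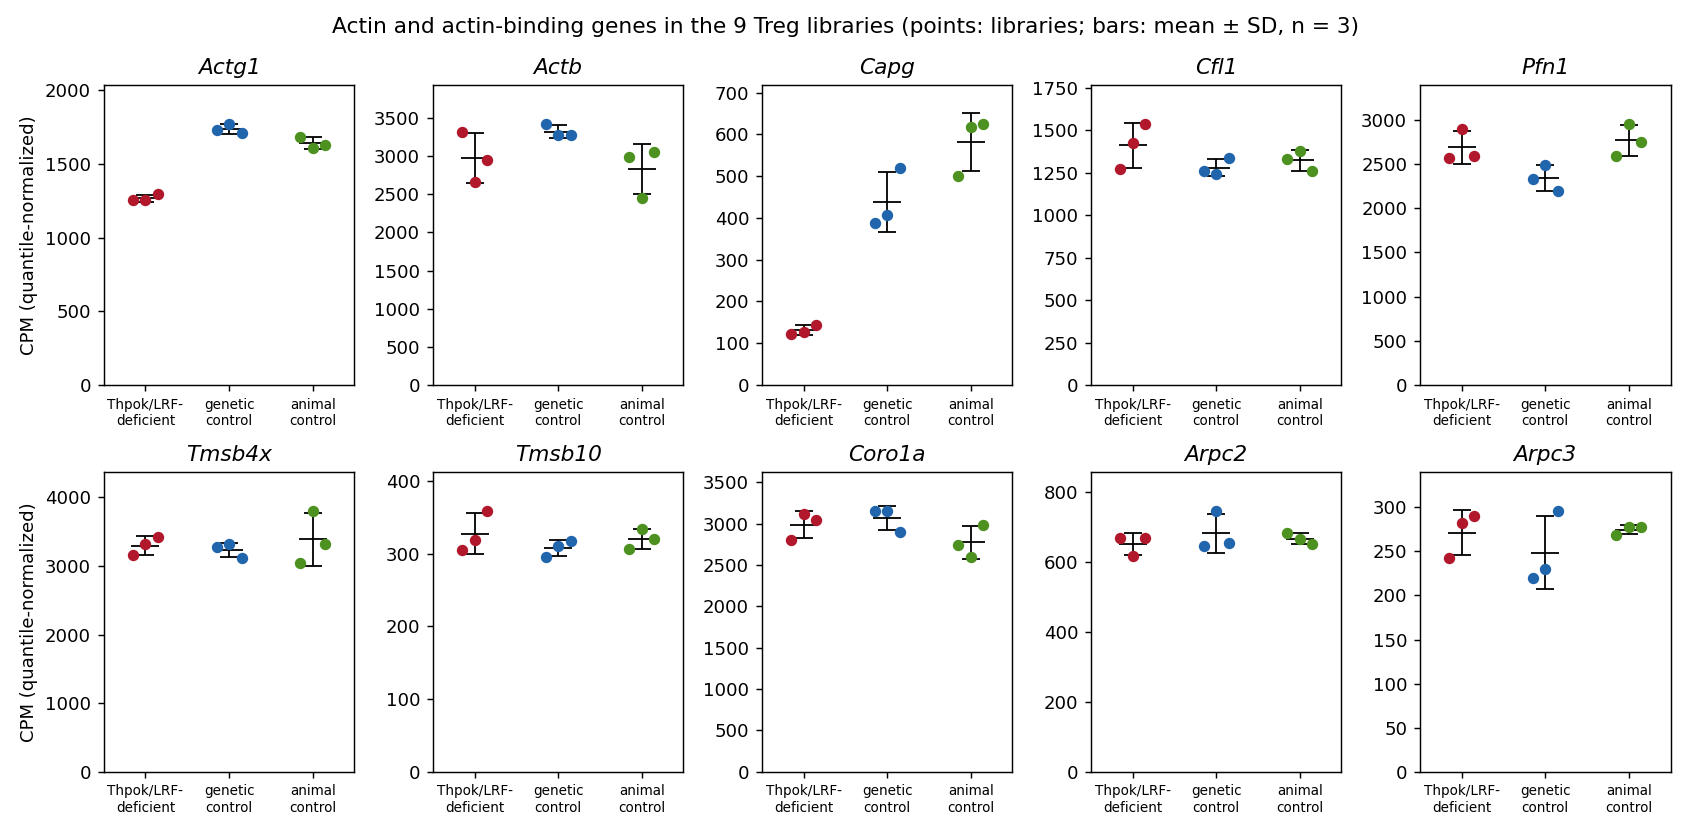
Level of each of the 10 genes in CPM (vertical axes from 0) in the 3 libraries of deficient cells, genetic controls and animal controls; points are libraries and bars mean ± SD (n = 3). The deficient libraries stand apart below both controls for Actg1 (1252 to 1294 CPM) and Capg (121 to 144 CPM), and overlap at least 1 kind of control for the other 8 genes.

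Since Actg1 and Actb encode nearly the same protein, their ratio within a library was read as well. A ratio within a library is unaffected by a factor common to its genes, but it does depend on the quantile normalization and on the length of each transcript, so only its difference between groups is read. The log2 ratio of Actg1 to Actb was -1.41, -1.09 and -1.19 in the deficient libraries. It was -0.98, -0.89 and -0.94 in genetic controls and -0.83, -0.61 and -0.90 in animal controls. All 3 deficient libraries lay below all 6 controls. The mean ratio was -1.23 ± 0.16 in deficient cells, -0.93 ± 0.05 in genetic controls and -0.78 ± 0.15 in animal controls (SD, n = 3 each). The log2 ratio of Capg to Actb averaged -4.50 ± 0.23 in deficient cells, -2.93 ± 0.25 in genetic controls and -2.29 ± 0.29 in animal controls. Against Actg1, the Capg ratio averaged -3.28 ± 0.10, -2.00 ± 0.25 and -1.51 ± 0.21 in the same groups. These ratios use the values already given and are no separate support for them.

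**Figure D2:**
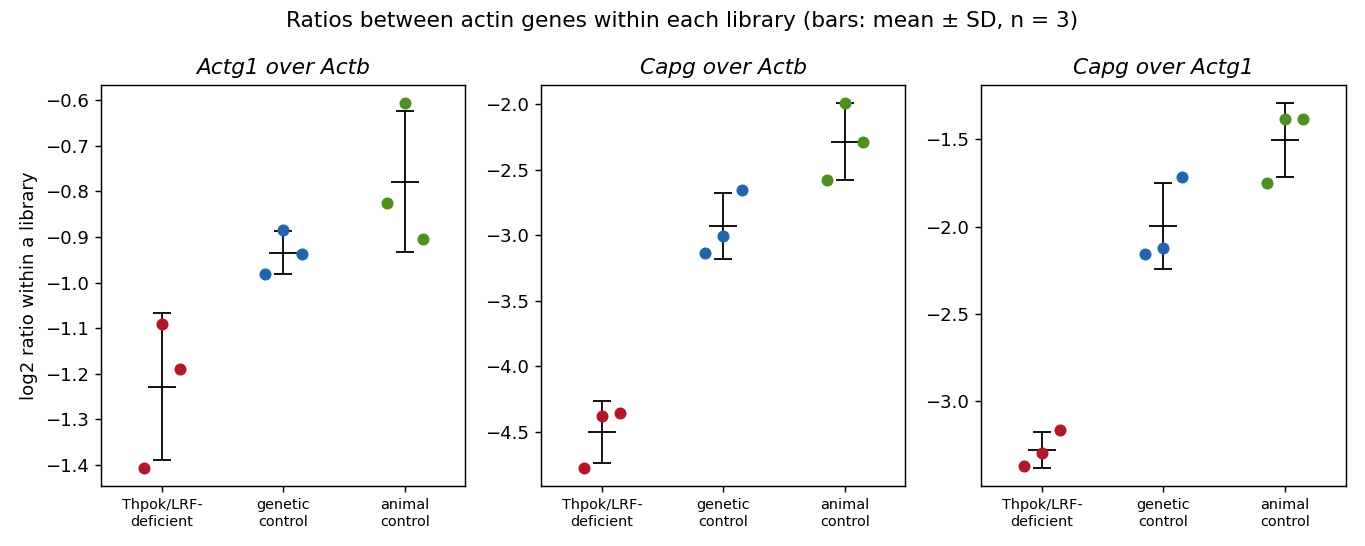
Log2 ratio of Actg1 to Actb, Capg to Actb and Capg to Actg1 within each library (points) with mean ± SD (bars, n = 3), for deficient cells, genetic controls and animal controls. The deficient libraries lie lowest in each panel; for Actg1 over Actb they average -1.23, against -0.93 in genetic controls and -0.78 in animal controls.

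Among the genes that hold monomers, Pfn1 encodes profilin, which exchanges the nucleotide of actin monomers and feeds them to growing ends. Pfn1 measured 2563, 2899.6 and 2595 CPM in the deficient libraries. It measured 2328, 2487 and 2198 CPM in genetic controls and 2595, 2950.2 and 2749 CPM in animal controls. All deficient libraries lay above all genetic controls and overlapped the animal controls, and the genetic controls lay below all animal controls. The log2 difference of deficient cells was 0.20 ± 0.07 from genetic controls and -0.04 ± 0.07 from animal controls, and that of genetic from animal controls was -0.24 ± 0.07. The level of Pfn1 in deficient cells was therefore close to that of the other cells from the same mice, with within-mouse log2 differences between -0.08 and -0.02.

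Tmsb4x and Tmsb10 encode thymosin beta-4 and beta-10, small proteins that keep actin monomers out of filaments. Tmsb4x averaged 3297 ± 132 CPM in deficient cells, 3236 ± 102 CPM in genetic controls and 3389 ± 383 CPM in animal controls (SD, n = 3 each). Its highest library was the animal control of mouse 232614 with 3803 CPM, and the other 8 lay between 3048 and 3419 CPM. The log2 difference of deficient cells was 0.03 ± 0.08 from genetic and -0.03 ± 0.08 from animal controls. Tmsb10 averaged 328 ± 28.3, 308 ± 10.8 and 321 ± 14.2 CPM in the 3 groups, with log2 differences of 0.09 ± 0.12 and 0.03 ± 0.12. For both thymosin genes the 3 groups overlapped. On GRCm38, Pfn1 lies on chromosome 11 (70651850 to 70654644), Tmsb4x on X (167207093 to 167209315) and Tmsb10 on chromosome 6 (72957347 to 72958748), all on the minus strand.

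Cfl1 encodes cofilin, which cuts aged filaments, and Coro1a encodes coronin-1A, a protein of blood cells that T cells need for migration and survival. Cfl1 measured 1271, 1426 and 1537 CPM in deficient libraries, with 1241 to 1339 CPM in genetic controls and 1260.2 to 1378 CPM in animal controls. Its log2 difference was 0.14 ± 0.08 from genetic and 0.09 ± 0.08 from animal controls. Coro1a measured 2804, 3120.4 and 3048 CPM in deficient libraries, with 2899.6 to 3156 CPM in genetic controls and 2595 to 2988 CPM in animal controls. Its log2 difference was -0.04 ± 0.07 from genetic and 0.11 ± 0.07 from animal controls. Groups overlapped in every comparison of Cfl1 and Coro1a. Coro1a was higher in the deficient library in 3 of 3 mice, but by log2 differences of only 0.03 in mice 142114 and 432614, against 0.27 in mouse 232614. Cfl1 lies on chromosome 19 (5490455 to 5495201, plus strand) and Coro1a on chromosome 7 (126699773 to 126707787, minus strand).

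Arpc2 and Arpc3 encode subunits of the Arp2/3 complex, which starts new filaments as branches on old ones. Arpc2 averaged 652 ± 30.9 CPM in deficient cells, 682 ± 56.0 CPM in genetic controls and 668 ± 15.6 CPM in animal controls. Arpc3 averaged 271 ± 25.5, 248.7 ± 41.2 and 275 ± 5.18 CPM in those groups (SD, n = 3 each). The log2 differences of deficient cells were -0.06 ± 0.09 and -0.03 ± 0.09 for Arpc2, and 0.13 ± 0.15 and -0.02 ± 0.15 for Arpc3, from genetic and animal controls in turn. Groups overlapped for both genes. Arpc2 lies on chromosome 1 (74236084 to 74268209) and Arpc3 on chromosome 5 (122391878 to 122414184), both on the plus strand.

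Across the 10 genes, the fit over all 13698 genes (limma, FDR under 0.05) called 2 lower and 0 higher in deficient cells against genetic controls, where it called 0.869% of all genes, 0.533% lower and 0.336% higher. Against animal controls it again called 2 lower and 0 higher, with 0.891% of all genes called, 0.584% lower and 0.307% higher. The called genes were Capg and Actg1 both times. The comparisons share the deficient libraries, and the genes were chosen with these values known, so nothing is read from the counts. Between genetic and animal controls 0 of the 10 were called by limma, with 0.0365% of all genes called. An unadjusted p under 0.05 was found there for 3 of the 10, beside 6.62% of all genes. For deficient cells it was found for 3 and 2 of the 10 against genetic and animal controls, beside 10.6% and 11.9%. The 8 genes other than Capg and Actg1 lay within 0.20 of 0 on the log2 scale against genetic controls and within 0.11 against animal controls. Groups did not overlap for 2 lower genes and 1 higher gene against genetic controls (all genes, 7.28% lower and 8.44% higher) and for 2 lower genes against animal controls, with 0 higher (all genes, 8.1% lower and 7.85% higher). Between genetic and animal controls 2 were higher (Actg1 and Actb) and 1 lower (Pfn1) without overlap, beside 4.88% and 5.57% of all genes, 10.4% together. The median log2 difference of the 10 genes was -0.01 against genetic and -0.03 against animal controls, beside 0.04 for all genes in both comparisons.

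With mouse as a fixed term in the 6 paired libraries, limma called 0 of 13698 genes in deficient cells against animal controls, though 1395 had an unadjusted p under 0.05. Capg and Actg1 were not called in that fit. Their log2 differences were the same there, which complete pairs of libraries make certain beforehand. Actg1 was also not called on the 6 libraries of either comparison alone, nor in a fit without the variance trend, while Capg was. Centring on the mean of 15 reference genes shifted the median of all genes by -0.23 and -0.22. That mean leans on the gene Tfrc, which averaged below 10 CPM. Tfrc had log2 differences of 3.95 ± 2.01 and 2.96 ± 2.01 from genetic and animal controls. The median log2 difference of the 15 genes was -0.08 and 0.07. So centred, all 10 genes lay below 0 against both controls. The 8 genes other than Capg and Actg1 lay between -0.40 and -0.03 against genetic and between -0.26 and -0.11 against animal controls. The signs of Pfn1, Cfl1 and others above 0 thus turned, and Actg1 was not called there. Leaving out deficient library 142114 or 232614, or animal control 142114 or 432614, ended the Actg1 call against animal controls, with log2 differences of -0.37, -0.37, -0.36 and -0.38.

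**Figure D3:**
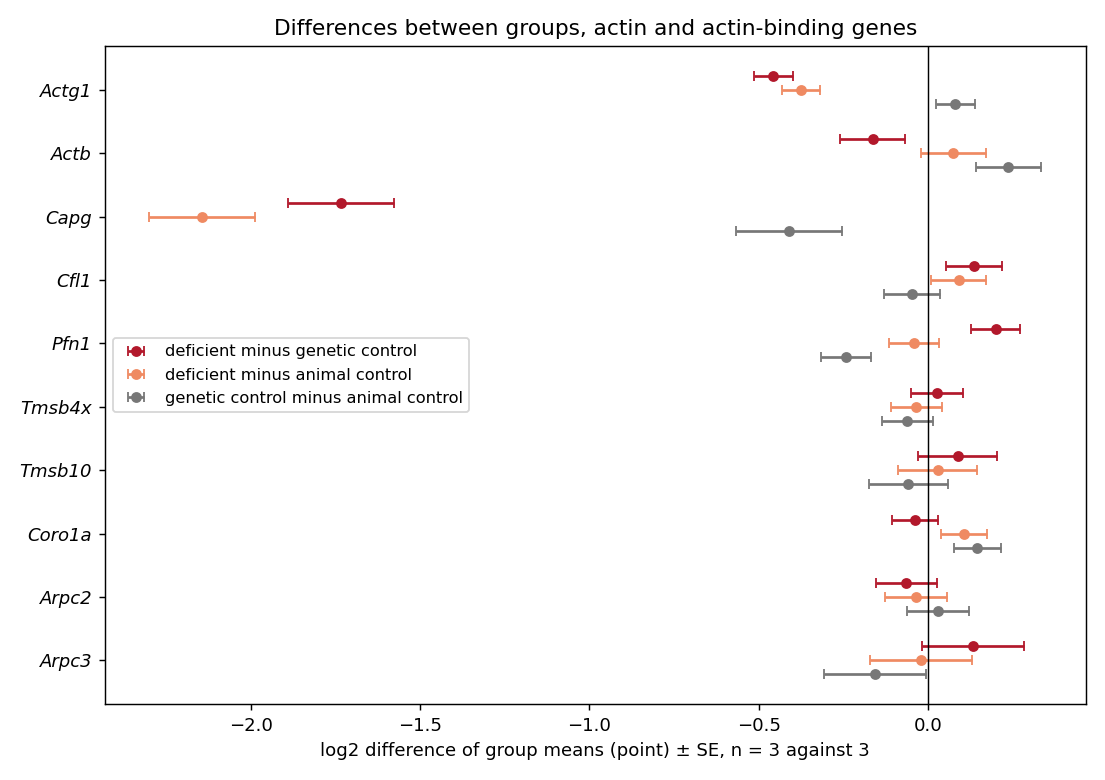
Log2 difference of group means (horizontal axis, n = 3 against 3) of the 10 genes, ± SE of the limma fit over all 9 libraries. Comparisons are deficient minus genetic control, deficient minus animal control and genetic minus animal control. Capg (-1.73 and -2.14) and Actg1 (-0.46 and -0.37) lie left of 0 in both comparisons of deficient cells; the other 8 lie within 0.20 of 0 there.

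The stretch upstream of Actg1 carries a CArG box, the element that SRF binds, and is shown for that reason. RefSeq promoter windows (GRCm38.p6), from 250 bases before to 50 after a gene's start, were found for 9 of the 10 genes, not for Actb, in 12 windows. A CArG box, which reads alike on both strands, was found in the window of Actg1 and in none of the others. Of 32851 such windows of all genes, 535 (1.63%) hold one. The stretch is chr11:120348543-120348745 on the minus strand, 203 bases that end where the first annotated exon begins, with the box in capitals.
Actg1 upstream: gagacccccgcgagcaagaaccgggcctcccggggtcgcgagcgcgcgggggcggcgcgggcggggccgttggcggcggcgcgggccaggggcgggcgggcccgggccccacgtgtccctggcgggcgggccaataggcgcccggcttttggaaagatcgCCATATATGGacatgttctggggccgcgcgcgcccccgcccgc
The box ends 80 bases before the start that RefSeq gives. This is a match of letters, not a measured site, and a window without one says nothing about SRF at that gene.

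Of SRF and its partners 0 of 7 genes were called by limma, with 0 and 2 (28.6%) at an unadjusted p under 0.05 against genetic and animal controls, beside 10.6% and 11.9% of all genes. Groups did not overlap for 0 and 3 (42.9%) of the 7, beside 15.7% and 15.9% of all genes. Srf measured 62.0, 89.0 and 90.7 CPM in deficient libraries, with 94.1, 74.8 and 29.3 CPM in genetic controls and 81.6, 41.7 and 42.4 CPM in animal controls. Its log2 difference was 0.43 ± 0.46 from genetic and 0.60 ± 0.46 from animal controls (adjusted p = 0.816 and 0.687 by limma). Mkl1 encodes MRTF-A, the SRF partner that free actin monomers hold back. It measured 156, 118 and 131 CPM in deficient libraries, with 209, 146 and 132 CPM in genetic controls and 270.2, 216 and 178 CPM in animal controls. The deficient libraries lay below all animal controls and overlapped the genetic controls (log2 differences -0.70 ± 0.23 and -0.25 ± 0.23, adjusted p = 0.256 and 0.783). Mkl2, which encodes the related MRTF-B, averaged 27.1 ± 9.85 CPM in deficient cells, 33.2 ± 19.0 CPM in genetic and 9.74 ± 7.0 CPM in animal controls, and did not pass the test either (adjusted p = 0.992 and 0.397).

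The rest of the actin machinery was read from 10 lists of 194 genes by role, with the genes above left out. Of these, 153 were in the table, and 125 averaged 10 CPM or more by the mean of their log2 values. Against genetic controls 1 of the 153 fell and 0 rose (0.654%, beside 0.869% of all genes). At an unadjusted p under 0.05 there were 23 (15.03%, beside 10.6% of all genes). Against animal controls 0 of the 153 were called by limma, beside 0.891% of all genes, with 29 (19.0%) at an unadjusted p under 0.05, beside 11.9% of all genes. Between genetic and animal controls 0 were called by limma, with 14 (9.15%) at an unadjusted p under 0.05, beside 6.62% of all genes. Median log2 differences of the 153 genes were -0.02, -0.01 and 0.04 in the 3 comparisons, beside 0.04, 0.04 and -0.02 for all genes. Groups did not overlap for 31 of the 153 (20.3%) against genetic controls, beside 15.7% of all genes, and for 34 (22.2%) against animal controls, beside 15.9%.

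Of 20 measured tropomyosin and myosin genes, 1 fell against genetic controls (5%, beside 0.533% of all genes lower) and 0 were called against animal controls. At an unadjusted p under 0.05 there were 2 (10%) and 5 (25%), beside 10.6% and 11.9% of all genes. Groups did not overlap for 5 (25%) in each comparison, beside 15.7% and 15.9%. The gene that fell was Myl12b, which encodes a regulatory light chain of non-muscle myosin II, the motor that pulls on actin filaments. It measured 367, 410.4 and 386 CPM in the deficient libraries. It measured 676, 672 and 528 CPM in genetic controls and 544, 662 and 621 CPM in animal controls. All deficient libraries lay below all 6 controls. Its log2 difference was -0.68 ± 0.13 from genetic controls (adjusted p = 0.0447 by limma) and -0.65 ± 0.13 from animal controls (adjusted p = 0.0529), lower in the deficient library in 3 of 3 mice. The call against genetic controls was lost in 12 of 17 other settings (adjusted p between 0.0331 and 0.433), 8 of them fits without 1 library, namely without genetic control 124 or 8619 (adjusted p = 0.125 and 0.160), without any one deficient library (0.122, 0.101 and 0.119) and without any one animal control (0.0567, 0.0649 and 0.0758).

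Myl12a, whose coding sequence differs from that of Myl12b at 18 of 519 bases, averaged 322 ± 13.05 CPM in deficient cells, 275 ± 34.8 CPM in genetic controls and 301 ± 64.5 CPM in animal controls. Its groups did not differ by the test (log2 differences 0.23 ± 0.17 and 0.12 ± 0.17, adjusted p = 0.707 and 0.865). With sequences this alike, reads of the pair may have been split between them, so both values are uncertain.

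The remaining Arp2/3 subunits were read next. Among the 7 of them at 10 CPM or more, log2 differences ran from -0.23 (Actr2) to 0.25 (Arpc4) against genetic controls, and from -0.15 (Arpc5l) to 0.55 (Arpc1a) against animal controls. None of the 8 measured subunits passed the test in any comparison, where 0.869%, 0.891% and 0.0365% of all genes did. In deficient cells 0 had an unadjusted p under 0.05 against either control, beside 10.6% and 11.9% of all genes. Between controls 1 (12.5%) did, beside 6.62%. Groups did not overlap for 1 (12.5%) against genetic and 0 against animal controls, beside 15.7% and 15.9% of all genes. With 8 genes and these shares, nothing is read from the counts. Arpc1b averaged 564 ± 39.3 CPM in deficient cells, 532 ± 149 CPM in genetic controls and 546 ± 46.5 CPM in animal controls. Was, the activator of the complex in blood cells, averaged 66.4 ± 11.2, 80.2 ± 13.04 and 76.4 ± 11.7 CPM (adjusted p = 0.775 and 0.825).

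The widest list was that of crosslinkers, bundlers and membrane linkers, with 0 of 29 measured genes called by limma, and with 9 (31.0%) and 8 (27.6%) at an unadjusted p under 0.05 against genetic and animal controls, beside 10.6% and 11.9% of all genes. Its groups did not overlap for 10 of 29 (34.5%) and 9 of 29 (31.0%), beside 15.7% and 15.9% of all genes. The following genes were chosen after their values were seen, and none of them passed the test. Cnn3, an actin-binding calponin, measured 113, 171 and 160.0 CPM in deficient libraries, with 63.4 to 79.6 CPM in genetic and 58.0 to 74.9 CPM in animal controls, without overlap (log2 differences 1.05 ± 0.24 and 1.09 ± 0.24, adjusted p = 0.0955 and 0.0806). Ezr, which encodes ezrin, a linker between filaments and the membrane, averaged 682 ± 73.8 CPM in deficient cells, 442 ± 116 CPM in genetic and 448 ± 63.2 CPM in animal controls (adjusted p = 0.198 and 0.213). Rdx, which encodes radixin of the same family, averaged 266 ± 20.7, 154 ± 16.3 and 206 ± 46.9 CPM (adjusted p = 0.115 and 0.454). Msn, which encodes moesin, the third of that family, averaged 2284 ± 150.3, 2418 ± 115 and 2152 ± 85.2 CPM (adjusted p = 0.726 and 0.702). Iqgap2 had the lowest log2 differences of the list among genes at 10 CPM or more (-2.89 ± 0.79 and -1.93 ± 0.79). It averaged 14.8 ± 13.4, 73.4 ± 11.1 and 41.8 ± 22.9 CPM (adjusted p = 0.168 and 0.374 by limma).

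Lcp1, which encodes the bundling protein plastin-2 of blood cells, averaged 1904 ± 121 CPM in deficient cells, 2335 ± 296 CPM in genetic controls and 2416 ± 92.3 CPM in animal controls (adjusted p = 0.246 and 0.144). Among other capping and severing genes, 0 of 11 measured were called by limma, with 2 (18.2%) and 3 (27.3%) at an unadjusted p under 0.05, beside 10.6% and 11.9% of all genes. Gsn, which encodes gelsolin, the relative of CapG that also cuts filaments, averaged 85.5 ± 24.6 CPM in deficient cells, 40.0 ± 7.93 CPM in genetic controls and 35.9 ± 27.5 CPM in animal controls. Its log2 differences of 1.07 ± 0.54 and 1.53 ± 0.54, opposite in sign to those of Capg, were not called (adjusted p = 0.526 and 0.295). Flii, another gelsolin relative, averaged 113 ± 49.99, 238 ± 7.65 and 142 ± 24.6 CPM (adjusted p = 0.148 and 0.671).

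Below both controls, though not called, were 2 further genes, again chosen after their values were seen. Cyfip1, a subunit of the WAVE complex that activates Arp2/3, measured 0.0869, 45.4 and 3.33 CPM in deficient libraries, with 83.2, 136 and 86.7 CPM in genetic and 65.2, 60.5 and 99.8 CPM in animal controls (adjusted p = 0.257 and 0.285). Actg2, the gamma-actin of smooth muscle, measured 8.07, 0.0620 and 0.0612 CPM in deficient libraries, with 9.78, 32.5 and 16.5 CPM in genetic and 26.9, 13.01 and 11.99 CPM in animal controls (adjusted p = 0.215 and 0.207). Neither overlapped a control, and the deficient libraries spread widely. For monomer and turnover genes, activators of Arp2/3, and formins with other nucleators, 0 of 21, 20 and 9 measured genes were called by limma against either control. At an unadjusted p under 0.05 there were 3 (14.3%), 3 (15%) and 1 (11.1%) of them against genetic controls, beside 10.6% of all genes, and 2 (9.52%), 2 (10%) and 1 (11.1%) against animal controls, beside 11.9%.

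**Figure D4:**
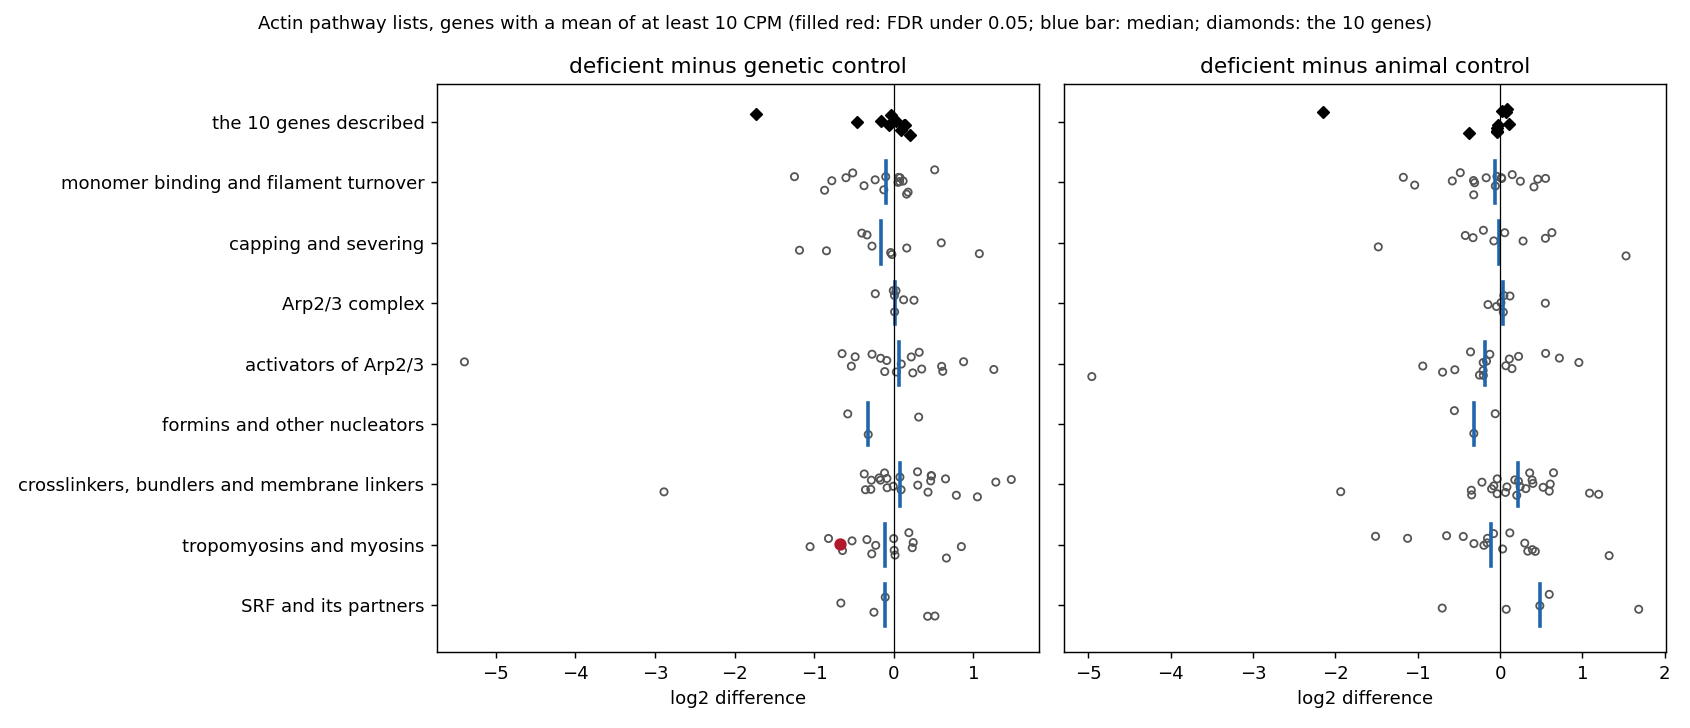
Log2 difference (horizontal axis) of each gene averaging 10 CPM or more, by role, for deficient minus genetic control (left) and deficient minus animal control (right); blue bars are list medians, filled red marks an FDR under 0.05, and diamonds are the 10 genes. Myl12b is the single red point (-0.68, left), and among the diamonds Capg stands apart at -1.73 and -2.14.

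Other filament systems were read for comparison. Of 16 measured tubulin and intermediate filament genes, 2 rose (12.5%) and 0 fell against each control, beside 0.336% and 0.307% of all genes higher and 0.533% and 0.584% lower against genetic and animal controls. Tubb5, a beta-tubulin, averaged 776 ± 44.2 CPM in deficient cells, 437 ± 85.8 CPM in genetic controls and 409 ± 42.3 CPM in animal controls (log2 differences 0.84 ± 0.15 and 0.93 ± 0.15, adjusted p = 0.0307 and 0.0161 by limma). Tubb3, the beta-tubulin known from neurons, averaged 11.5 ± 3.55 CPM in deficient cells, 0.00525 ± 0.00117 CPM in genetic controls and 0.0255 ± 0.0335 CPM in animal controls (adjusted p = 0.0237 and 0.0381 by limma). Genetic controls 8619 and 8800 and animal control 232614 lay at the lowest value deposited (0.00457 CPM). The control means of Tubb3 are therefore near that floor and are not measured levels. The calls of Tubb5 and Tubb3 were lost in 9 and 8 other settings against genetic controls and in 7 and 13 against animal controls, among them the fit with mouse as a fixed term (adjusted p = 0.170 and 0.294). Vim, which encodes vimentin, averaged 487 ± 11.9, 615 ± 28.8 and 606 ± 43.1 CPM, a difference that was not called (adjusted p = 0.176 and 0.206). Of 15 genes often used as references, 0 were called by limma against either control, with 1 (6.67%) and 3 (20%) at an unadjusted p under 0.05, beside 10.6% and 11.9% of all genes.

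The genes most like Capg and Actg1 were sought among the 7550 genes that averaged 10 CPM or more, by the root mean square difference of centred log2 values over the 9 libraries. For Capg they were Psen2 (0.21), Smpdl3a (0.25) and Lgals1 (0.27). Lgals1 averaged 32.8 ± 3.71 CPM in deficient cells, 142 ± 33.3 CPM in genetic controls and 149 ± 25.9 CPM in animal controls. For Actg1 they were Ptpn1 (0.07), Limd2 (0.07) and Trac (0.08). Limd2 averaged 1325 ± 16.3 CPM in deficient cells, 1725 ± 108 CPM in genetic and 1579 ± 60.8 CPM in animal controls.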

How the data were processed

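The submitters' processing notes name bcl2fastq 1.8.4, STAR 2.4.0h, limma with no version, and the build mm10. Per the labels, RNA came from RNeasy plus micro columns, with SMARTer Ultra Low and Nextera XT libraries. The deposited table holds log2 values made by the authors; each library has the same lowest (-7.77) and highest (13.42) value and nearly the same linear sum, so they were read as quantile-normalized log2 CPM. Depth cannot be known from such values, and counting intervals are left out. No source used here names the counter or annotation. The table has 13702 rows, of which 4 exact duplicates were dropped.

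The deposited values entered unchanged and unfiltered. Wherever genes are sorted at 10 CPM, the mean of their log2 values over the 9 libraries was used, while group means in CPM are means of CPM. The fit was limma-trend (limma 3.58.1, R 4.3.3) with group means over all 9 libraries, two-sided, and p-values of all 13698 genes were adjusted together (Benjamini-Hochberg, FDR under 0.05). An exact permutation test of 3 libraries against 3 cannot go below p = 0.1, so none is given. Nothing in the labels says more about the independence of libraries than the mouse numbers.

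Of the 10 pathway lists, 1 is counted in the totals and is otherwise not reported here. The members and lists were chosen with earlier results of these data known. Genes were named by this rule: all 10 genes; called genes of the pathway, tubulin and reference lists; Srf, Mkl1 and Mkl2 always; and the 3 nearest profiles of the 2 genes with the widest range. Ctss and the other cell markers, Myl12a, copies of the 10 genes, and the genes marked as such were added after their values were seen. Deficient cells and animal controls come from the same mice and share mouse numbers; after group means were removed, same-mouse libraries had correlations of 0.0483, 0.0202 and 0.0170 across 7550 genes, which are not independent. Coordinates are 1-based on GRCm38 from GENCODE M21, and the promoter windows are from RefSeq (GRCm38.p6). The fit was also run on simulated independent values without paired mice, with planted differences larger than that of Actg1. That run says nothing about paired libraries or about differences as small as that of Actg1.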

Additional observations from a re-analysis of the deposited data

How the results depend on the processing

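Settings were the mouse as a fixed or random term, no variance trend, only the 6 libraries compared, genes at 10 CPM or more, log2(CPM + 1), centring on the median or on 15 reference genes, and leaving out libraries. The replicate block as a fixed term could be fitted for deficient cells against animal controls only, and took the 122 called genes to 0 and the called members of the 10 from 2 to 0; as a random term it called 1 pathway gene (Myl12b) there, against 0, and it changed no other call of the 10. Of 520 differences of the 10 genes under other settings, 500 moved by less than the spread between libraries. Many of these could not move. The mouse terms, the fit without trend, the 6 libraries alone and the 10 CPM filter leave the differences as they are. Leaving out a library does not touch a comparison without its group. The other 20 were all under centring on reference genes. It shifted the median of all genes by -0.23 against genetic and -0.22 against animal controls, a shift that leans on Tfrc. Actg1 was then -0.69 and -0.59 and Capg -1.97 and -2.36. Actb, which is not among those 15 genes, was at -0.40 and -0.14, and all 10 genes lay below 0 in both comparisons. That centring called 75 genes against genetic controls (20 higher and 55 lower, against 46 and 73) and 80 against animal controls (13 higher and 67 lower, against 42 and 80), with 1 of the 10 (Capg) each time and 0 pathway genes against genetic controls. On the 6 libraries alone 22 and 52 genes were called against genetic and animal controls, with 1 of the 10 (Capg) each and 0 pathway genes, and 3 between controls, against 5. Without the trend 1 of the 10 (Capg) was called against each control, 0 pathway genes against genetic controls, and 32 genes between controls. Restricted to genes at 10 CPM or more, 1 pathway gene (Myl12b) was called against animal controls. Leaving out genetic control 8619 (highest in summed myeloid markers) together with animal control 232614, 21 and 27 genes were called, with 1 of the 10 (Capg) each and 0 pathway genes against genetic controls, and 1 gene between controls. Leaving out 1 library at a time gave 48 to 93 genes against genetic controls, 58 to 115 against animal controls and 4 to 10 between controls; of the 10, 2 to 2, 1 to 2 and 0 to 0; of the pathway genes 0 to 1, 0 to 1 and 0 to 0. Apart from the weight of Tfrc in the centring on reference genes, the cause of these changes was not tested. The unknown depth limits the lowest values most.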
